A study of Mus musculus with 2 samples.

Results

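The replication-dependent histone genes were taken as all annotated genes whose symbol starts with Hist and a cluster number, which gave 70 of 55536 genes. They were measured by total RNA sequencing in hippocampus, labelled as a layer of it, from male B6CASTF1/J mice aged 25 days. There was 1 group with 2 biological replicates, so no conditions were compared and what follows gives levels and the spread between these libraries. Both replicates carry the same donor identifier but separate tissue sample identifiers, so the labels leave unsettled whether they are separate animals, and their spread could be technical. The input was 300 ng of RNA per library, to which ERCC spike-ins, synthetic RNAs of known amount, were added. The strain is an F1 hybrid of C57BL/6J and CAST/EiJ mice, while mm10, the genome build used here, is of C57BL/6J; the part of this in any level was not tested.

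Histones package DNA into nucleosomes. H2A, H2B, H3 and H4 form the protein core around which DNA winds, and H1 linker histones bind where the DNA enters and leaves it. The replication-dependent genes lack introns, lie in clusters and are transcribed mainly in S phase, when new DNA needs packaging. Their mRNAs typically end in a conserved stem-loop in place of a poly(A) tail, and the stem-loop is bound by the protein Slbp. In tissue where most cells no longer divide, histones are also supplied by replication-independent genes such as H3f3a and H3f3b, whose mRNAs are polyadenylated. Total RNA libraries can hold both kinds of message.

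The stem-loop marks the mRNA 3' end that sets this family apart, so its forms are shown first. The 16-base histone stem-loop consensus was searched on the sense strand of the annotated transcripts (GENCODE M21, mm10) and was found in 44 of the 70 genes. Over all annotated genes with a transcript sequence, 0.112% held it (62 of 55450). Among them was H2afx, an H2A gene listed below with the replication-independent histones. Capitals mark the 4-base loop, and each form is named by the number of genes that hold it and 1 such gene.

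Form 1, in 26 genes of the H1, H2A, H2B and H3 types (Hist2h2aa2): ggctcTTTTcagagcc
Form 2, in 7 H4 genes (Hist1h4h): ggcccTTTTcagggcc
Form 3, in 6 genes (Hist1h3e): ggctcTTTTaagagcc
Form 4, in 2 H4 genes (Hist2h4): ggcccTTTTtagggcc
Form 5, in 2 H4 genes (Hist1h4b): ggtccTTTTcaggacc
Form 6, in 1 gene (Hist2h2ac): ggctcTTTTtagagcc

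No form was shared between H4 and the other types: all 11 H4 genes with a match carried form 2, 4 or 5. A pair of further genes held a stem with a changed loop that the consensus did not take, ggctcTTCTtagagcc in Hist1h3g and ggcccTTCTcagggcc in Hist1h4a. The genes with form 1 summed to 358 transcripts-per-million (TPM, a length-scaled level) in replicate 1 and 383 in replicate 2. The 7 H4 genes with form 2 summed to 377 and 419 TPM.

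Promoter letters also differed between H4 and the other types. RefSeq windows (GRCm38.p6, the assembly of mm10) from 250 bases before to 50 after the start were matched by Entrez gene ID, and 61 members had one whose start lay within 100 bases of the annotated one. The letters CCAAT, on either strand, occurred in 52 of these 61 (85.2%), against 37.4% of 32851 RefSeq promoters of the same length. By type, CCAAT was found in 5 of 5 H1, 18 of 18 H2A, 16 of 16 H2B, 10 of 10 H3 and 3 of 12 H4 windows. The 3 H4 genes were Hist1h4a, Hist1h4c and Hist1h4d. The letters TATAAA, on either strand, occurred in 34 of 61 windows (55.7% against 13.6% of all), including 8 of 12 H4 windows. In the H4 windows, matches on the gene's strand lay from position -250 (Hist1h4f) to 41 (Hist1h4a), counted from the RefSeq start. Many H2A and H2B genes lie head to head with 172 to 305 bases between their starts, so the windows of partners overlap. A match can thus be counted for both genes, and the 61 windows are not independent promoters. These are matches of letters, not measured binding.

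An example of each is shown for a highly expressed H2B gene and the most highly expressed H4 gene. The first run is the whole stretch between the starts of Hist1h2ae, transcribed to the left, and Hist1h2bg, transcribed to the right. The second is the same length before Hist1h4h. Both are on the plus strand, and capitals mark TATAAA and, on the plus or the minus strand, CCAAT (read as ATTGG when it lies on the minus strand).

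Hist1h2ae and Hist1h2bg, chr13:23571221-23571395: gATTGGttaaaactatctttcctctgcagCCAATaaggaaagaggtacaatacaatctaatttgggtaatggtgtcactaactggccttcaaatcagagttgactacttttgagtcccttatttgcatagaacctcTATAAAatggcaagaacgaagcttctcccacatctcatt
Hist1h4h, chr13:23530869-23531043: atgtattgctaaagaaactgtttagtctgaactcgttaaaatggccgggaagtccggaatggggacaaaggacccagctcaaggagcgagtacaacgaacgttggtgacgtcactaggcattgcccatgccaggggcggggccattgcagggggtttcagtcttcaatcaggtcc

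The stretch shared by Hist1h2ae and Hist1h2bg held 1 CCAAT on each strand and 1 TATAAA, the last of these 39 bases before the Hist1h2bg start, and its GC content was 38.3%. The Hist1h4h stretch held none of these and had a GC content of 52.6%.

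Histone mRNA was broadly present in this tissue. Of the 70 genes, 63 had a mean of at least 1 TPM, against 27.4% of all annotated genes, and 35 had at least 10 TPM. The median member lay at 9.81 TPM. Together the members took 1255 TPM in replicate 1 and 1370 TPM in replicate 2, which is 0.125% and 0.137% of all TPM. They held 14698 and 18692 expected counts of library totals of 30635891 and 35713471. A count is called expected because RSEM, the program whose columns these tables have, divides reads that fit several genes among them.

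H4, the core histone that pairs with H3, took the largest share of the TPM assigned by RSEM. Its 13 genes held 46.8% and 46.9% of member TPM in the replicates. The 19 H2B genes held 19.9% and 19.4%, and the 20 H2A genes 18.3% and 18.2%. The 12 H3 genes held 9.72% and 10.3%, and the 6 H1 genes 5.32% and 5.24%. By kallisto, the other quantification deposited for the same libraries, H4 held 33.2% and 34.6%, so the size of the H4 share differed between the tables by much more than between the replicates. By RSEM's expected counts, which are not scaled by length, H4 held 38.4% and 38.8%. By kallisto's estimated counts H4 did not lead, at 1485 and 1876. The H2A genes had 2221 and 2801, the H1 genes 2056 and 2512, and the H2B genes 1857 and 2192. Only the H3 genes had fewer, at 950 and 1345.

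**Figure D1:**
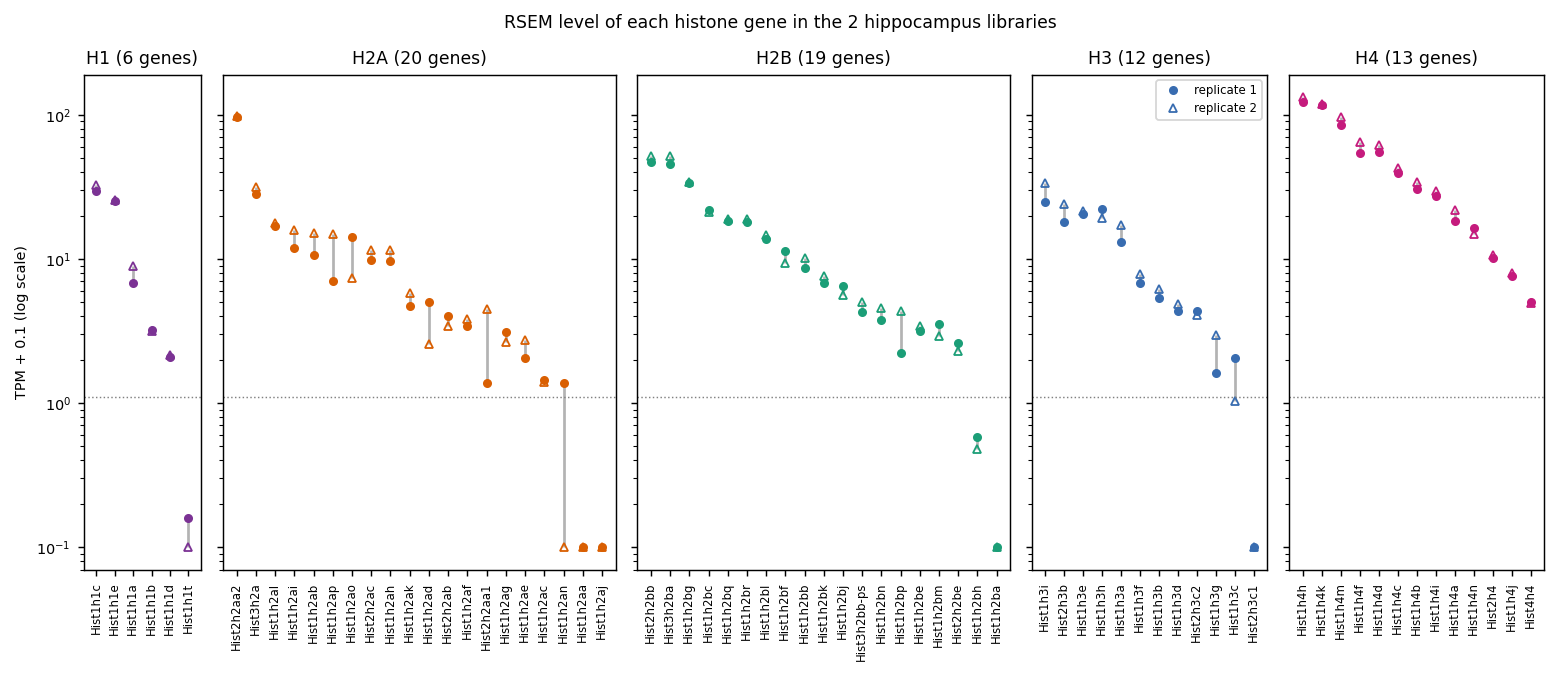
TPM of each of the 70 histone genes, with 0.1 added, on a log axis, in replicate 1 (filled circles) and replicate 2 (open triangles), by histone type and ordered by mean; the grey line joins the replicates and the dotted line marks a TPM of 1. H4 genes reach the highest levels, up to 123 and 133 TPM for Hist1h4h, and 4 genes lie at 0 in both libraries.

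The signal was concentrated in a few genes. By RSEM the 10 highest members held 55.3% and 55.0% of member TPM, and 6 of these 10 were H4 genes. The 20 highest held 75.0% and 74.9%. Hist1h4h (chromosome 13, 23531050 to 23531519, plus strand) was the highest, at 123 TPM in replicate 1 and 133 in replicate 2. Hist1h4k, whose annotated model is the coding sequence alone, followed at 116 and 119 TPM. In RSEM the replicate ranges of these genes did not overlap, and both lay above all other members. By kallisto Hist1h4h had 252 and 379 TPM and Hist1h4k 0.871 and 4.56, so the place of Hist1h4k rests on the RSEM table.

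Hist2h2aa2 (chromosome 3, 96239749 to 96240276, minus strand) was the highest H2A gene in RSEM, at 95.9 and 98.2 TPM; kallisto listed it at 0 and its copy Hist2h2aa1 at 195 and 193 TPM. Hist1h4m stood at 84.6 and 96.3 TPM, a range that overlapped that of Hist2h2aa2. Hist1h4f had 54.2 and 65.0 TPM and Hist1h4d 54.7 and 62.0, again overlapping. Hist1h4c was lower, at 39.3 and 43.0 TPM, and its range overlapped neither that of the gene above it nor that of the gene below. Hist1h4b at 30.6 and 34.2 TPM and Hist1h4i at 27.3 and 29.6 TPM completed the H4 genes among the 20 highest. Among the 19 neighbouring pairs in the order of these 20 genes, 11 had overlapping replicate ranges, so the order holds only in steps.

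Outside H4, the H2B genes Hist2h2bb and Hist3h2ba came highest after Hist2h2aa2. Hist2h2bb was measured at 46.7 and 51.7 TPM and Hist3h2ba at 45.6 and 51.4, which did not separate them. Hist1h2bg had 33.7 and 34.1 TPM and Hist1h2bc 21.8 and 20.9. Hist3h2a, an H2A gene on chromosome 11, had 28.1 and 31.3 TPM; it overlaps Trim17 on the same strand, so part of its reads may be divided with that gene. Hist2h2bb overlaps Gm42743 on the same strand in the same way. In all, 7 members overlap another gene on the same strand and 23, 20 of them H2A genes, a gene on the opposite strand. Whether counting used the strand is not stated in the tables.

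The highest H3 genes lay close together. Hist1h3i stood at 24.8 TPM in replicate 1 and 33.4 in replicate 2, Hist2h3b at 17.9 and 24.1, Hist1h3e at 20.4 and 21.5 and Hist1h3h at 22.0 and 19.1. All of these ranges except that of Hist1h3i overlapped one another. By RSEM no H3 gene was among the 10 highest members. By kallisto Hist2h3b, at 34.0 and 42.7 TPM, and Hist1h3b, at 36.3 and 37.6, were among the 10 highest. RSEM gave Hist1h3b 5.22 and 6.05 TPM.

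The linker histones split into a high pair and a low group. Hist1h1c (H1.2) was measured at 29.6 and 32.2 TPM and Hist1h1e (H1.4) at 25.3 and 25.6. Hist1h1a (H1.1) had 6.66 and 8.85 TPM, Hist1h1b (H1.5) 3.13 and 3.05, and Hist1h1d (H1.3) 1.99 and 2.05. The TPM of Hist1h1d is divided over a model of 7425 bases and rests on 304 and 367 expected counts, more than the 89 and 139 behind Hist1h1a. The testis linker histone Hist1h1t had 1 count in replicate 1 and 0 in replicate 2. Hist1h1e shares an annotated exon stretch on the same strand with Hist1h2be, an H2B gene at 3.04 and 3.30 TPM by RSEM and 15.2 in both libraries by kallisto.

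By genomic cluster, the 56 genes of cluster 1 on chromosome 13 held 78.1% and 77.9% of member TPM. The 10 genes of cluster 2 on chromosome 3 held 15.3% in both libraries, and 3 genes of cluster 3 on chromosome 11 held 6.21% and 6.4%. Within cluster 2, Hist2h2ac had 9.81 and 11.4 TPM, Hist2h4 10.1 and 10.6, Hist2h3c2 4.22 and 3.97, Hist2h2ab 3.90 and 3.34, and Hist2h2be 2.53 and 2.20. The cluster 3 pseudogene Hist3h2bb-ps had 4.16 and 4.90 TPM. Hist4h4 on chromosome 6, the only gene of cluster 4, had 4.93 and 4.88 TPM.

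The genes known from male germ cells were at or near 0 in the RSEM table. Hist1h2aa and Hist1h2ba, an H2A and H2B pair of testis, had 0 expected counts in both libraries, which allows up to 0.0979 and 0.084 counts-per-million. This limit covers counting error only. In the kallisto table Hist1h2ba had 16 estimated counts in replicate 1 and 0 in replicate 2. The other members without expected counts were the pseudogene Hist1h2aj and Hist2h3c1.

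Genes differed in how far their annotated message runs past the stem-loop. The genes were divided, after their values had been seen, by their annotated 3' end. In 22 genes a transcript ran more than 100 bases past the stem-loop, and these held 54.2% and 54.1% of member counts, or 27.9% and 27.8% of member TPM. In 22 genes the model ended within 100 bases of the stem-loop, with 26.5% and 26.7% of member counts and 41.0% and 41.1% of member TPM. A further 11 genes are annotated as coding sequence only, 12 have no match to the stem-loop consensus in a longer model and 3 are pseudogenes. These 12 include Hist1h3g and Hist1h4a, which hold the stem with a changed loop.

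A poly(A) signal (AATAAA or ATTAAA in the last 40 bases) stood in 14 of 25 transcripts of the genes in the extended class and in 2 of 23 transcripts of the genes whose model ends near the stem-loop. Of these 2, that of Hist1h4h ends 46 bases past the stem-loop and that of Hist1h2bp holds no stem-loop. Among other protein-coding transcripts 48.7% had one. Over all 78 member transcripts 21 had one, from 17 genes, and these transcripts held 34.7% and 34.8% of member counts. Hist3h2a, with 1199 and 1570 expected counts, and Hist1h1c, with 900 and 1152, were among them. The tables count reads over whole models, so they do not tell messages that end at the stem-loop from longer ones of the same gene.

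H2A and H2B genes mostly lie head to head. A total of 14 such pairs were found, with 172 to 305 bases between the annotated starts. The genes of a pair often differed in level: by RSEM's TPM, the H2B gene was higher in both replicates in 8 pairs and the H2A gene in 4. In 4 pairs the difference was over 4-fold in both replicates, with 0.1 added to each TPM. Hist1h2bg, at 33.7 and 34.1 TPM, faced Hist1h2ae at 1.97 and 2.63 TPM across the stretch printed above. Hist1h2bc, at 21.8 and 20.9 TPM, faced Hist1h2ac at 1.34 and 1.30. Hist3h2a, at 28.1 and 31.3 TPM, faced the pseudogene Hist3h2bb-ps, and Hist1h2bm, at 3.46 and 2.82 TPM, the pseudogene Hist1h2aj, which is listed at 0. By kallisto, 2 of these differences were not over 4-fold: Hist1h2bg had 30.2 and 27.0 TPM against 17.3 and 16.3 for Hist1h2ae, and Hist3h2a had 31.8 and 35.1 TPM against 35.8 and 33.9 for Hist3h2bb-ps. In kallisto the higher gene was also another in some pairs. Hist1h2ad, at 42.0 and 53.7 TPM, stood above Hist1h2bf at 28.1 and 29.9. Hist1h2ap, at 19.1 and 18.2 TPM, stood above Hist1h2br at 1.67 and 0.0722. The other way, Hist1h2bk, at 3.34 and 7.64 TPM, stood above Hist1h2ah at 2.95 and 5.96.

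The other pairs were not over 4-fold apart in both replicates by RSEM, though some were in 1. Hist1h2bp had 2.12 and 4.28 TPM against 1.27 and 0 for Hist1h2an, a log2 difference of 0.70 in replicate 1 and 5.45 in replicate 2. Hist1h2ai had 11.8 and 15.7 TPM against 13.7 and 14.6 for Hist1h2bl, so the higher gene changed between replicates. By kallisto Hist1h2ai was higher in both replicates, at 34.7 and 24.6 TPM against 1.52 and 0.65. Hist1h2ak, at 4.64 and 5.74 TPM, stood above Hist1h2bn at 3.65 and 4.46. Hist2h2ac, at 9.81 and 11.4 TPM, stood above Hist2h2be at 2.53 and 2.20, over 4-fold in replicate 2. By expected counts, which are not scaled by length, Hist2h2be was the higher, at 133 and 136 against 86.0 and 117. The annotated lengths are 2620 bases for Hist2h2be and 520 for Hist2h2ac. Several members of such pairs, Hist1h2ae among them, also share sequence with other genes, and that limits these values as given below.

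**Figure D2:**
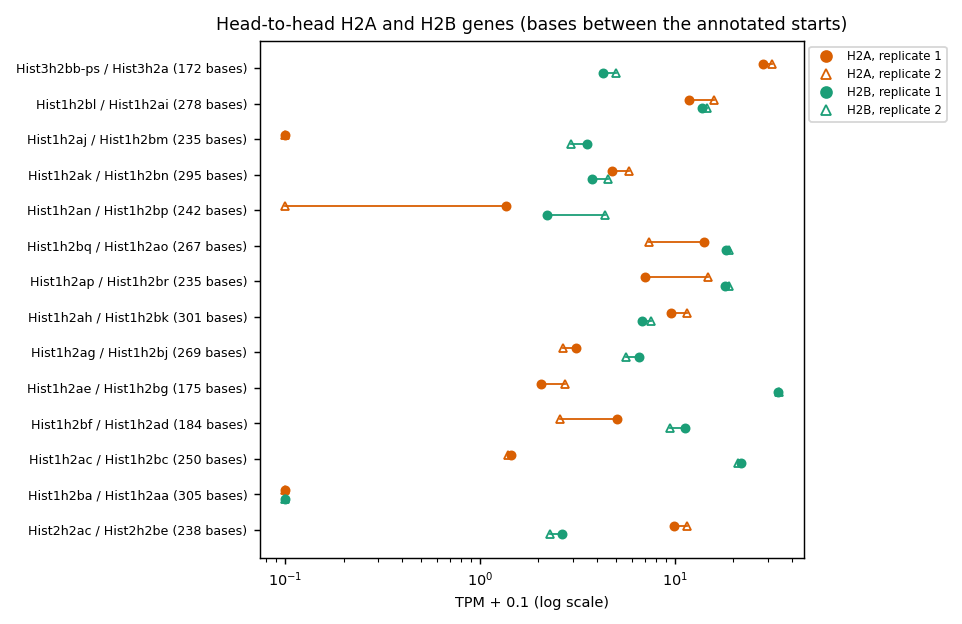
TPM, with 0.1 added, on a log axis, of the H2A gene (orange) and the H2B gene (green) in each of the 14 head-to-head pairs, in replicate 1 (filled circles) and replicate 2 (open triangles); labels give the bases between the annotated starts. In these RSEM values, Hist1h2bg and Hist1h2bc lie far above their partners, while Hist1h2bl and Hist1h2ai overlap.

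Members shared much of their sequence, and counts were less certain where more was shared. The 13 H4 genes all code in 312 bases that are 85.3% to 100% identical between pairs of genes, with a median of 93.9%. The 12 H3 genes share 411 coding bases at 93.7% to 100%. Of the H2A genes 15 have a coding length of 393 bases and were 77.6% to 100% identical, and of the H2B genes 15 have 381 bases and were 82.9% to 100% identical. There were 5 pairs with identical coding sequence: Hist1h2ao with Hist1h2ap, Hist2h2aa1 with Hist2h2aa2, Hist1h2bq with Hist1h2br, Hist2h3c1 with Hist2h3c2 and Hist1h4m with Hist1h4n.

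In 26 of the 70 members, at least 50% of the distinct 100-base windows of the transcripts also occurred in another gene, against 9.54% of all genes. RSEM gives each count a posterior SD, a measure of how uncertain the division of shared reads is. Among the 64 members with a mean of at least 10 expected counts, this SD was at least 10% of the posterior mean in both replicates in 22, against 3.6% of 18255 genes. By type these were 10 of 17 H2A, 6 of 18 H2B, 5 of 11 H3, 1 of 13 H4 and 0 of 5 H1 genes. Of members with at least 50% of their windows shared, 17 of 23 passed that mark, and of the others 5 of 41.

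The largest relative SDs belonged to near-complete copies. Hist1h2bq had 67.4% and 53.6%, Hist1h2ao 58.4% and 53.3%, Hist2h2aa1 68.6% and 40.7%, Hist1h2br 43.0% and 57.1%, and Hist1h2ap 53.2% and 30.4%. Hist1h1a, Hist1h1b, Hist2h4, Hist4h4 and Hist2h2be had 0 in both libraries. Hist2h3c1, listed at 0 expected counts, had posterior mean counts of 8.85 and 9.57 with SDs of 6.42 and 6.55, and all of its windows occur in another gene. An expected count of 0 is therefore no measure of absence for this gene.

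**Figure D3:**
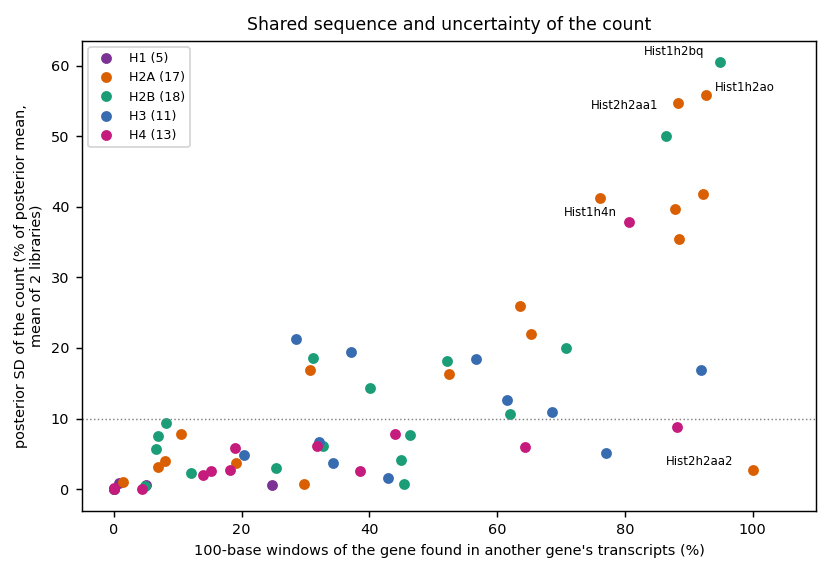
Posterior SD of the count in percent of the posterior mean (mean of the 2 libraries) against the percentage of the gene's 100-base windows that occur in another gene, for the 64 histone genes with a mean of at least 10 expected counts, coloured by type; the dotted line marks 10%. The labelled copies lie at the upper right, while Hist2h2aa2 combines 100% shared windows with an SD of 2.68%.

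The replicate ratios of members lay closer together where the posterior SD was small. Ratios are given as replicate 2 over replicate 1 on the log2 scale, from expected counts scaled by edgeR's TMM factors with a prior count of 0.5. The 64 members had a median of 0.17, against 0.01 over 18255 genes, and 50 of them were higher in replicate 2, against 52.6% of all genes. Scaled to the spike-ins, the median of all genes moved to -0.19 and that of the members to -0.04, and 25 of 64 members were higher in replicate 2. The distance between members and all genes was 0.15 with TMM factors and 0.16 with spike-ins. With 1 group and 2 libraries no test could be made of this shift. Haemoglobin and Alas2, markers of blood, also summed higher in replicate 2, at 1075 TPM against 724, with 4 of 4 higher and a median log2 ratio of 0.54. Neuron markers had a median ratio of 0.13 with 4 of 5 higher, oligodendrocyte markers 0.13 with 3 of 3 higher, and endothelium markers -0.21 with 0 of 2 higher. Astrocyte markers had -0.01 with 1 of 3 higher, microglia markers 0.06 with 3 of 3 and neuronal progenitor markers 0.06 with 2 of 3. At the count minimum, markers of dividing cells had 0.00 with 1 of 2 higher and germ cell markers 0.54 with 2 of 2. The part of these in the shift was not tested.

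Of these 64 members, 4 lay over 2-fold apart, against 5.13% of all genes at the same count minimum. The 3 that were higher in replicate 2, against 0.657% of all genes, were Hist2h2aa1 at 1.80, Hist1h2ap at 1.13 and Hist1h2bp at 1.06. The 1 that was lower, against 4.47%, was Hist1h3c at -1.03. Their expected counts were 12.99 and 52.7 for Hist2h2aa1, 55.2 and 138 for Hist1h2ap, 17.0 and 40.6 for Hist1h2bp, and 21.6 and 12.2 for Hist1h3c. All 4 had a relative posterior SD of at least 10% in both replicates. The next largest ratios were 0.89 for Hist1h3g and 0.56 for Hist1h2ab, and in the other direction -0.93 for Hist1h2ad, -0.90 for Hist1h2ao, -0.28 for Hist1h2bm and -0.27 for Hist1h2bh. Among the 40 members with an SD under 10% in both replicates, 0 lay over 2-fold apart and the SD of the ratios was 0.18. Among the other 24 the SD of the ratios was 0.65. The share over all genes under the same SD limit was not computed. Of the 22 members with an SD of at least 10% in both replicates, 5 had a mean of at least 100 expected counts. These sets thus also differ in count, and the part of this in the spread was not tested. At a mean of at least 100 expected counts, 0 of 36 members were over 2-fold apart, against 0.778% of all genes.

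Of the 4 pairs of near-complete copies, 2 held genes whose ratios had opposite signs. Hist1h2ao fell from 112 to 68.2 expected counts between replicate 1 and 2 and its copy Hist1h2ap rose from 55.2 to 138, while the log2 ratio of their sum was 0.11. Hist1h2ao thus took 66.9% of the shared total in replicate 1 and 33.1% in replicate 2. In the other such pair the ratio was 0.23 for Hist1h4m and -0.10 for Hist1h4n, and 0.18 for their sum. Summed, Hist2h2aa1 and Hist2h2aa2 had a ratio of 0.13, and Hist1h2bq and Hist1h2br 0.09.

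**Figure D4:**
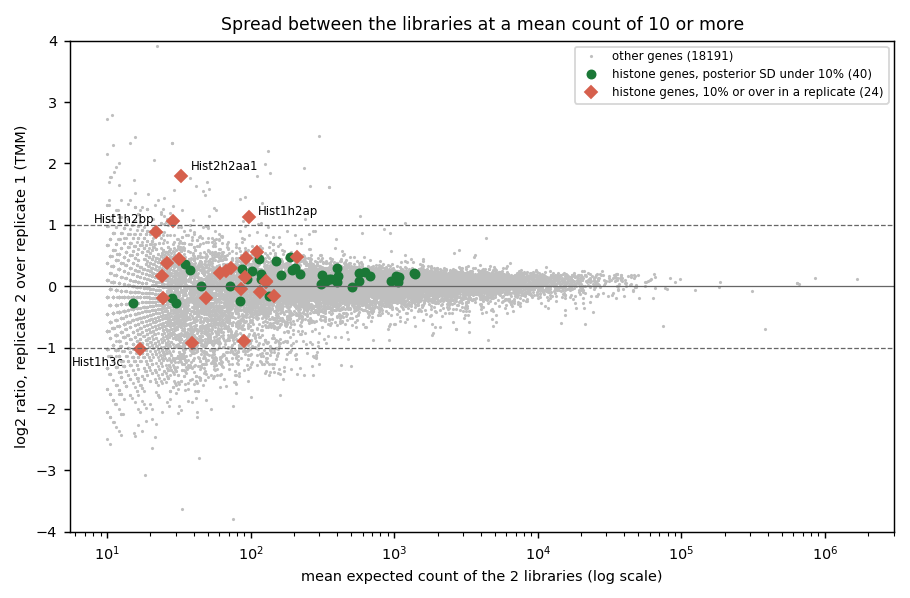
Log2 ratio of replicate 2 over replicate 1 (TMM-scaled expected counts) against the mean expected count on a log axis, for 18191 other genes (grey), 40 histone genes with a posterior SD under 10% in both libraries (green circles) and 24 others (red diamonds); dashed lines mark 2-fold. The 4 named genes beyond 2-fold are all red diamonds, and at a mean count of at least 100 no histone gene lies beyond 2-fold.

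RSEM and kallisto divided the same libraries differently among the members. Of 18082 genes compared, RSEM gave the higher TPM by over 2-fold in 3.86% and kallisto in 19.9%. Among H4 genes RSEM was over 2-fold higher in 9 of 13 and kallisto in 2 of 13. Among the H3 genes it was 0 and 5 of 11, among H2A genes 4 and 6 of 17, among H2B genes 4 and 7 of 18, and among H1 genes 0 and 0 of 5. H4 genes summed to 5643 and 7257 expected counts by RSEM but 1485 and 1876 estimated counts by kallisto. The cause was not tested.

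For near-complete copies the tables divided the reads differently, and in some pairs they favoured different genes. RSEM gave 1.49% and 4.87% of the reads of Hist2h2aa1 and Hist2h2aa2 to Hist2h2aa1, and kallisto gave it 100% in both libraries. Their summed counts were 870 and 1083 by RSEM and 750 and 896 by kallisto. For Hist1h2bq and Hist1h2br, kallisto gave Hist1h2bq 0.87% in replicate 1 and 96.4% in replicate 2, where RSEM gave it 50.2% and 49.9%. Here the sums differed as well, at 230 and 279 expected counts by RSEM and 36.0 and 34.3 estimated counts by kallisto. Hist1h4m and Hist1h4n summed to 647 and 834 by RSEM and 128 and 162 by kallisto. Hist1h2ao and Hist1h2ap summed to 167 and 206 against 47.05 and 59.2. Both tables gave most reads to Hist1h4m over Hist1h4n, with 82.5% and 85.6% by RSEM and 100% and 95.2% by kallisto. Hist1h2ao took 66.9% and 33.1% of its pair by RSEM and 0% and 9.61% by kallisto. A level of either copy of a pair alone is thus not established by these tables.

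Large differences were also found for genes without a near-complete copy. Hist1h4d had 1185 and 1577 expected counts by RSEM and 14 and 13 estimated counts by kallisto, although 0% of its 100-base windows occur in another gene. Hist1h4k had 515 and 621 against 1 and 6, Hist1h4f 330 and 464 against 0 and 2.01, and Hist1h4b 189.7 and 249.4 against 0 and 3.01. The H2A pseudogene Hist1h2al had 84.3 and 104 expected counts and 0 in kallisto. In the other direction, Hist1h4h had 252 and 379 TPM by kallisto, above its 123 and 133 by RSEM. Besides Hist2h2aa1 and Hist1h2ba, kallisto was highest relative to RSEM for Hist1h2ad, at 42.0 and 53.7 TPM against 4.96 and 2.48, for Hist3h2bb-ps, at 35.8 and 33.9 against 4.16 and 4.90, and for Hist1h2ae, at 17.3 and 16.3 against 1.97 and 2.63.

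In kallisto, 6 of 52 members with a mean of at least 10 estimated counts lay over 2-fold apart between replicates, against 7.28% of all genes, and none of them was among the 4 found with RSEM. Hist1h4a was one, at 413 and 176 estimated counts, while RSEM gave it 168 and 236. Members for which both tables stayed close included Hist1h1c, Hist3h2ba, Hist1h3e and Hist3h2a, whose log2 ratios of RSEM over kallisto were -0.26, -0.10, 0.05 and -0.17.

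**Figure D5:**
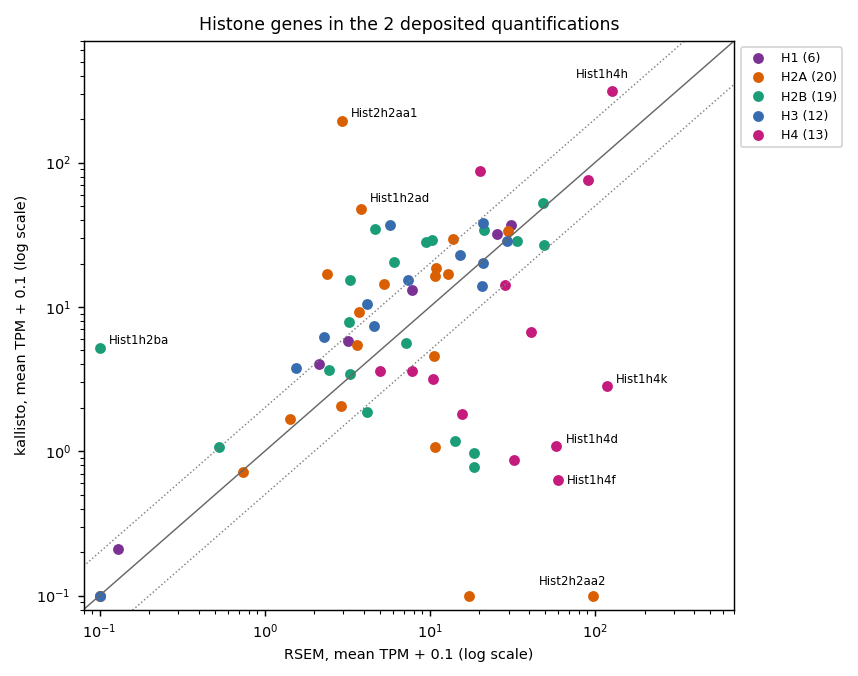
Mean TPM of each histone gene by RSEM (x axis) and by kallisto (y axis), with 0.1 added, both on log axes, coloured by type; the solid line marks equal values and the dotted lines 2-fold. Many H4 genes lie below the lower dotted line, with Hist1h4d at 58.4 TPM by RSEM and 0.986 by kallisto, and the copies Hist2h2aa1 and Hist2h2aa2 lie on opposite sides.

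The genes around histone supply were given by lists. Of 12 genes listed as replication-independent histones, H2afx with its stem-loop among them, 11 were detected at 1 TPM, with a median of 34.4 TPM. H3f3a and H3f3b, which encode H3.3, and H2afz, which encodes H2A.Z, were the highest. H3f3a had 165 and 178 TPM, and H3f3b 124 and 131. Together H3f3a and H3f3b had 2.37 and 2.19 times the TPM of all 12 member H3 genes, and 4.84 and 4.36 times by expected counts. Summed over all genes, members had 2.22 and 2.31 times the TPM of the 12 genes of that list. These sets are unlike, since that list holds no H2B or H4 gene. The member H4 genes had 587 and 642 TPM and the member H2B genes 250 and 265. The linker variants H1f0 and H1fx together had 1.17 and 1.19 times the TPM of the 6 member H1 genes.

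Among 19 genes for histone mRNA transcription and 3' end processing, 18 reached 1 TPM and the median was 11.3 TPM; Srrt, Sympk and Cstf2 were highest. Slbp, the stem-loop binding protein, had 9.55 and 8.73 TPM, and Npat, the coactivator of histone gene transcription, 7.46 and 7.97. Histone chaperones escort histones to and from DNA; 9 of 11 reached 1 TPM, their median was 15.5 TPM, and Atrx, Nap1l1 and Ssrp1 were highest. Chaf1b, a subunit of the replication-coupled chaperone CAF-1, had 0.95 and 0.68 TPM. For DNA replication and division, 11 of 16 genes reached 1 TPM and their median was 1.98 TPM, beside 9.81 TPM for the histone members. Pcna, the sliding clamp, was highest of these at 20.2 and 22.4 TPM, and the division marker Mki67 had 0.56 and 0.52. In bulk tissue, fewer dividing cells and less RNA per cell cannot be told apart.

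Marker lists of cell types were also read. These lists name cell types, not brain regions, so they could not check the hippocampus label. All 5 neuron markers, 3 astrocyte, 3 oligodendrocyte, 3 microglia, 2 endothelium and 4 blood markers reached 1 TPM. Of all annotated genes 27.4% did. Of 3 markers of dividing cells 1 did, Top2a at 1.07 and 1.61 TPM. Of 3 neuronal progenitor markers 2 did, Sox2 at 22.86 and 23.15 TPM and Dcx at 10.51 and 9.81. Of 3 germ cell markers 1 did, Dazl at 1.15 and 1.55 TPM, and Acrv1 was at 0.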

How the data were processed

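The authors deposited, for each of 2 total RNA libraries, gene and transcript tables of mm10 with annotation M21, per the notes deposited with the samples. The deposited columns are those of RSEM and kallisto, per the file headers: expected or estimated counts, TPM (scaled by length and to a fixed total over all rows by the authors' programs), the isoform percent of a gene, and a posterior SD, a score of count uncertainty; aligner and tool versions were not given in the sources used here. Gene symbols came from the deposited table's headers. The 26248 numbered rows that name no gene held 6 and 2 counts and, like the 96 spike-ins, were left out of library totals.

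From the deposited expected counts, rounded, ratios were computed with edgeR 4.0.16 (TMM), in R 4.3.3, at a mean count of at least 10; DESeq2 1.42.0 gave other size factors. No p-value was computed, since 1 group has no comparison. Depth limits a 0 count to 0.0979 and 0.084 counts-per-million. The step that computes the replicate ratios was tested on simulated counts. Windows, stem-loops and poly(A) signals were searched in the GENCODE M21 transcripts and promoters in RefSeq's table with Python 3.11.15, pandas 2.3.3 and numpy 2.4.6. Figures were drawn with matplotlib 3.10.9.

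The members and lists were chosen with earlier results of these data known. Named genes were the 20 highest members, all H1 genes, clusters 2 to 4, the largest replicate ratios, posterior SDs and table differences, germ-cell members and partners of head-to-head pairs. Further genes were named after their values were seen. Alternatives covered TPM and count minimums, scalings, the prior count, kallisto, posterior mean TPM, and each replicate left out.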

Additional observations from a re-analysis of the deposited data

How the results depend on the processing

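The number of members detected stayed between 56 (kallisto) and 64 under every alternative run, and between 62 and 64 without 1 of the replicates. Members took 0.131% of TPM on average, 0.152% in kallisto, 0.0502% by expected counts and 0.242% of TPM over nuclear genes without 7SL and 7SK; without 1 replicate it was 0.125% to 0.137%. The median log2 ratio of members was 0.12 to 0.18 in all settings but spike-in scaling, where it was -0.04, with the median of all genes at -0.19.

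Of the 4 members over 2-fold apart, 0 remained at a mean count of at least 100. Among alternatives chosen after seeing the data, 0 did with a posterior SD under 10%, and 2 genes with near-complete copies (at least 80% of windows shared both ways) summed. Members with a posterior SD of at least 10% numbered 22, and 36 at a 5% minimum, 11 at 20% and 5 at a mean count of at least 100; with 1 replicate alone there were 22 to 24.

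The shares of member TPM depended on the table. In kallisto H1 held 6.01%, H2A 27.1%, H3 13.3% and H4 33.9%. By expected counts H1 held 15.4%, H2A 19.6%, H2B 17.1%, H3 9.2% and H4 38.6%. Without 1 replicate H1 ranged from 5.24% to 5.32%, H2A from 18.2% to 18.3%, H2B from 19.4% to 19.9%, H3 from 9.72% to 10.3% and H4 from 46.8% to 46.9%. The cause of the differences between tables was not tested. Of the 70 single levels, 62 moved by more than 1 SD between RSEM and kallisto. No paired analysis was possible because there was 1 group and no comparison.

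With 2 libraries, an SD rests on 2 values. Levels of near-complete copies differed between the tables. So did the summed counts of each pair, least for Hist2h2aa1 with Hist2h2aa2. This order did not hold for summed TPM. There Hist2h2aa1 with Hist2h2aa2 had 97.16 and 102.59 by RSEM and 195.1 and 193 by kallisto. Hist1h2ao with Hist1h2ap were closer, at 20.98 and 22.06 by RSEM and 19.09 and 20.13 by kallisto. Hist1h2bq with Hist1h2br stayed far apart, at 36.08 and 37.75 by RSEM and 1.695 and 1.403 by kallisto.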
